A study of Homo sapiens with 2 samples.

Results

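The major histocompatibility complex (MHC) on the short arm of chromosome 6 was described here by the ZMYND8 ChIP-seq summits it held. The members are all summits of both deposited lists between positions 29600000 and 33400000 of chromosome 6 in hg19, taken by position alone and without regard to their scores. There were 192 such summits among the 45924 of the parental list and 2 among the 385 of the knockout list. They were split by position into class I (29600000 to 31480000), class III (31480000 to 32360000) and class II (32360000 to 33400000), in that order from the telomeric to the centromeric side. A position on an inner boundary was counted in 1 part only, so the counts of the parts add up to the whole.

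The study profiled ZMYND8 in mammospheres, floating sphere cultures, of MDA-MB-231, an established line from a triple-negative breast cancer. There were 2 groups with 1 library each: wildtype (parental) spheres, and spheres of the same line with a ZMYND8 knockout. Both were grown in MammoCult medium and precipitated with the same antibody against ZMYND8, no drug or time course is named, and the labels leave unsaid whether the knockout is 1 clone. A single library per genotype gives no replicate error and allows no test between genotypes. All intervals below are 95% intervals for counting error only, treat neighbouring summits as independent, and describe these libraries.

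ZMYND8 is a chromatin reader with bromodomain, PHD, PWWP and MYND domains that recognises acetylated and methylated histones and works with corepressor complexes. The MHC is among the most gene-rich and most variable stretches of the human genome. Class I holds genes, HLA-B and HLA-C among them, whose products show cytosolic peptides to CD8+ T cells, together with many unrelated genes. Class II holds the HLA-DR, HLA-DQ and HLA-DP genes, whose products show endocytosed peptides to CD4+ T cells and are normally made by professional antigen-presenting cells, and the TAP and immunoproteasome genes that feed class I. As cut here, class II also runs, by general knowledge, into extended class II, with COL11A2, RXRB, DAXX and CUTA among its genes. Class III lies between class I and class II and carries complement, TNF family, heat shock protein and many housekeeping genes but no antigen-presenting molecules.

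The parental library held summits in all 3 parts. Class III was the densest per length, with 61 summits in 0.880 Mb, or 69.3 per Mb (exact Poisson interval 53.0 to 89.0). Class I held 92 summits in 1.88 Mb, or 48.9 per Mb (39.4 to 60.0). Class II held 39 summits in 1.04 Mb, or 37.5 per Mb (26.7 to 51.3). Class III was thus denser than class II by a ratio of 1.85 (exact conditional interval 1.22 to 2.84) and denser than class I by 1.42 (1.01 to 1.98), the latter barely beyond counting error. Neither difference was beyond counting error among summits with a score of at least 3 (1.35, 0.788 to 2.33, over class II and 1.07, 0.676 to 1.66, over class I), nor was the second with both inner boundaries moved 50 kb up (1.38, 0.977 to 1.93). The densities of class I and class II had a ratio of 1.30 (0.888 to 1.95), an interval that includes equal density.

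The order of the 3 parts was another one when only higher scoring summits were counted. Each summit has a score that the authors deposited, a −log10 p or q value, used here only to rank and filter within a list. At a score of at least 5, class I held 34 summits (18.1 per Mb, 12.5 to 25.3), class II held 11 (10.6 per Mb, 5.28 to 18.9) and class III held 7 (7.95 per Mb, 3.20 to 16.4). The density ratio of class III over class I went from 1.42 to 0.440 (0.165 to 1.01), so class III, the densest part in the full list, became the sparsest, with intervals that overlap. Over the whole genome the parental list held 14.8 summits per Mb, and 4.40 per Mb at a score of at least 5, which 29.7% of its summits reached.

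Class III summits were weak members of the parental list. In class III, 7 of 61 summits (11.5%, exact binomial interval 4.74 to 22.2) reached a score of 5, against 34 of 92 in class I (37.0%, 27.1 to 47.7) and 11 of 39 in class II (28.2%, 15.0 to 44.9). Against the 29.7% of the whole list, class II lay near that background, class III lay below it and class I lay above it with an interval that includes it. The highest scoring 25% of the list, which holds 26.1% of it because ties at its edge (score 5.68) were kept, took 6 class III summits (9.84%, 3.70 to 20.2). It took 32 class I summits (34.8%, 25.1 to 45.4) and 11 class II summits (28.2%, 15.0 to 44.9). The class I excess rested largely on its densest 100-kb window. With the densest window of each part left out, a setting chosen after seeing the data, the share was 27.9% in class I. It was then 12.5% in class III and 26.7% in class II. At the other end, 29 of the 61 class III summits (47.5%, 34.6 to 60.7) scored below 3, against 33.9% of the list.

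Medians told less than these shares, because most scores are tied. In the region 43 distinct score values occurred, and the 4 commonest, led by 3.79 with 31 summits, accounted for 106 summits (55.2%). The median score was 4.25 in class I, 3.79 in class III and 3.79 in class II, the last equal to the median of the whole list (3.79). Without its densest 100-kb window each part, class I included, had a median of 3.79. Scores ran from 1.45 to 20.28 in class I, from 1.45 to 21.69 in class III and from 1.45 to 17.53 in class II. A score of at least 10 was reached by 7, 2 and 3 summits of class I, III and II, together 12 of 192 (6.25%), while 6.27% of the parental list reached it. The region as a whole therefore had the same share of high scores as the list it came from, with an interval of 3.27 to 10.7%.

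**Figure D1:**
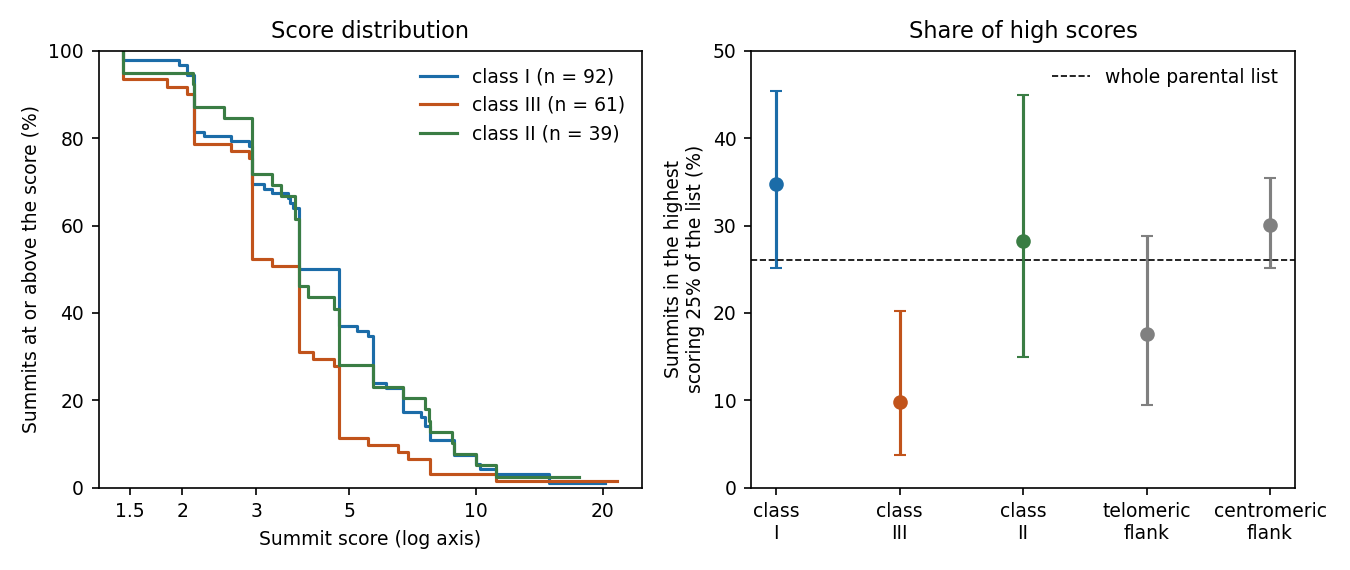
Scores of parental summits by part. Left, percentage of summits (y) at or above each score (x, log axis) for class I (n = 92), class III (n = 61) and class II (n = 39); right, percentage of summits in the highest scoring 25% of the parental list, with exact binomial intervals as bars and the whole list (26.1%) as a dashed line. Class III lies at 9.84%, below the line with its whole interval, and class I lies at 34.8%.

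Counting genes in place of length also gave another order. Protein-coding genes were assigned to parts by their order along chromosome 6 in RefSeq (GRCh38.p14), with MOG to MICB as class I, MCCD1 to TSBP1 as class III and BTNL2 to CUTA as class II. This gave 51, 60 and 37 genes, or 27.1, 68.2 and 35.6 genes per Mb of hg19 length. Class I then held 1.80 summits per gene (1.45 to 2.21), class III 1.02 (0.778 to 1.31) and class II 1.05 (0.750 to 1.44). Class I was the highest part per gene, and class III and class II had a ratio of 0.965 (0.635 to 1.48). Of the 92 class I summits, 31 lay in 1 window of 100 kb (30700000 to 30800000), and the per-gene value without it was not computed. Summits per gene were not computed for the genome, chromosome 6 or the flanks. These values therefore compare the parts only, and whether the region exceeds the genome per gene was not tested.

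**Figure D2:**
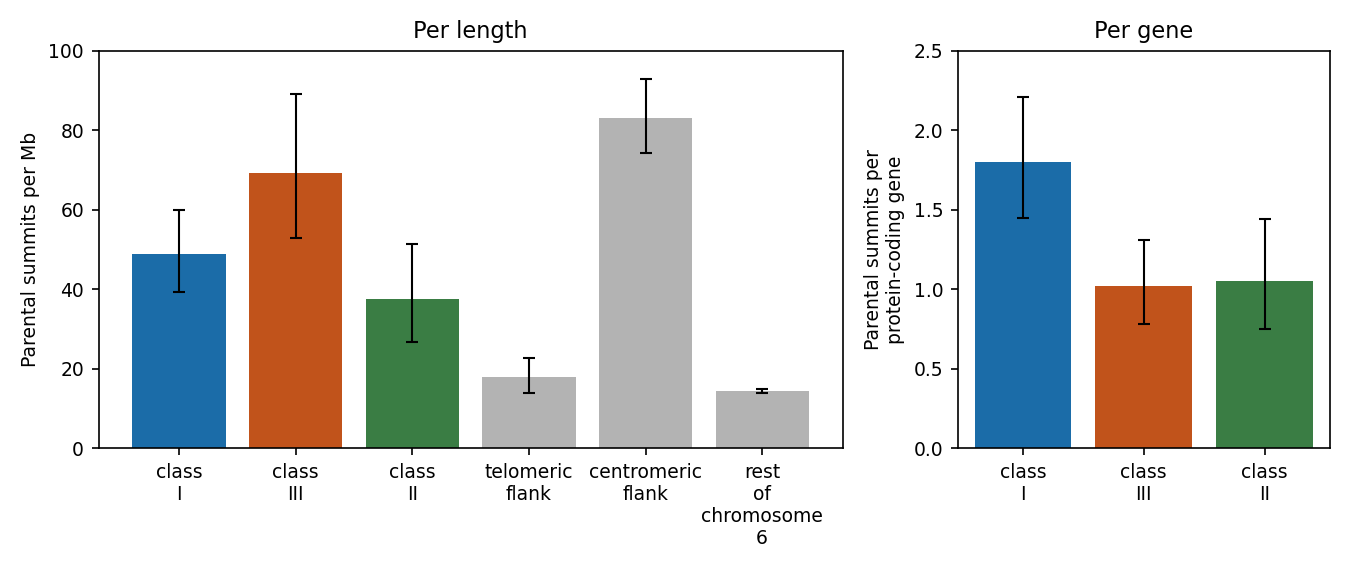
Density of parental summits. Left, summits per Mb in the 3 parts, in the flanks of the same length as the region and on the rest of chromosome 6; right, summits per protein-coding gene in the 3 parts; bars start at 0 and error bars are exact Poisson intervals. Class III is the highest of the 3 parts per length (69.3 per Mb) and class I per gene (1.80).

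The region stood between very different neighbours. Its 192 parental summits came to 50.5 per Mb (43.6 to 58.2), 3.50 times (3.01 to 4.06) the 14.4 per Mb of the rest of chromosome 6. The stretch of equal length on the telomeric side held 68 summits (17.9 per Mb, 13.9 to 22.7), and the MHC exceeded it by a ratio of 2.82 (2.13 to 3.78). The stretch of equal length on the centromeric side held 316 (83.2 per Mb, 74.2 to 92.9), and the MHC was sparser than it by a ratio of 0.608 (0.505 to 0.729). Of the 3 parts, class III over the centromeric flank had a ratio of 0.834 (0.623 to 1.10), class I of 0.588 (0.461 to 0.744) and class II of 0.451 (0.315 to 0.630). In cytogenetic bands, 6p21.33 held 123 of the 192 summits at 72.4 per Mb, 6p21.32 held 36.2 per Mb and the part of 6p22.1 in the region held 27.5 per Mb.

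**Figure D3:**
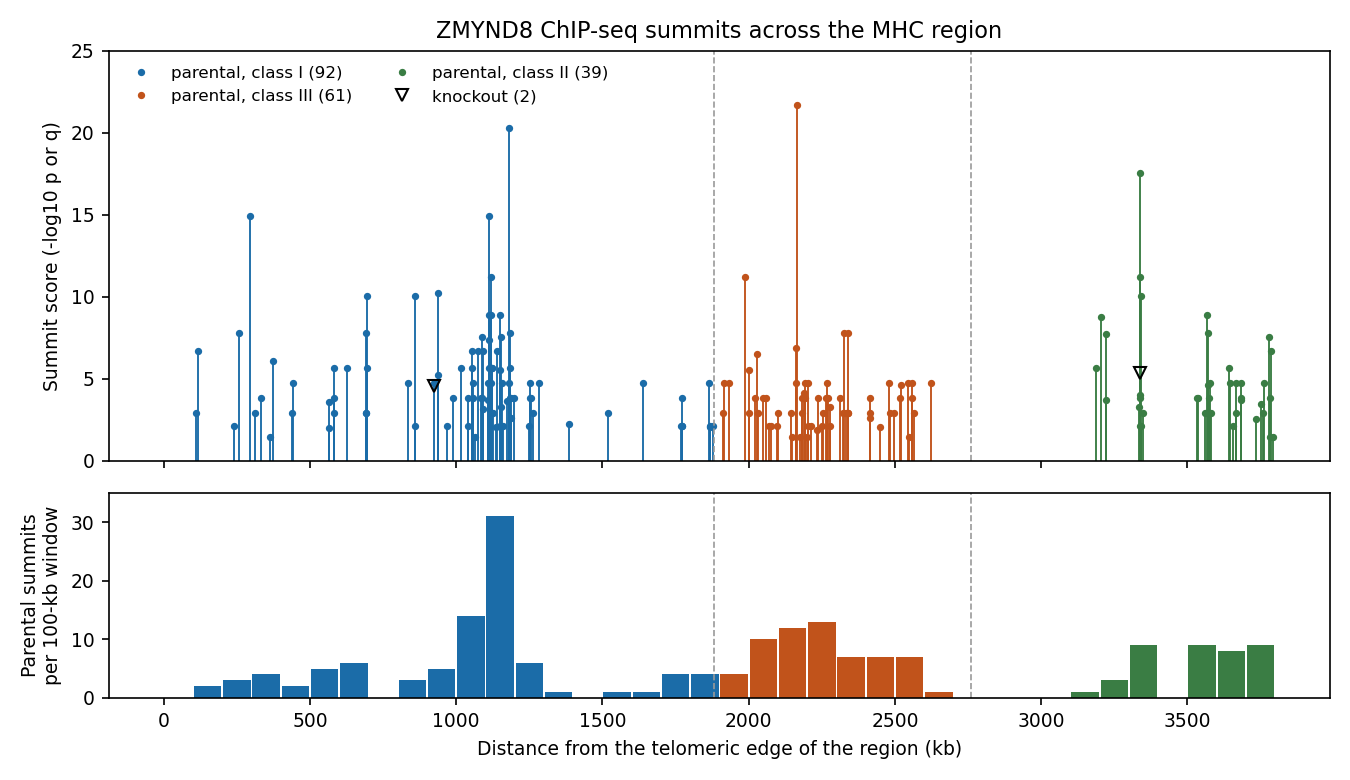
Summits across the MHC region. Top, score of each summit (y) against its distance in kb from the telomeric edge of the region (x), with parental summits as coloured stems and the 2 knockout summits as open triangles; bottom, parental summits per 100-kb window, coloured by the part that holds the window's midpoint; dashed lines mark the boundaries between class I, class III and class II. The highest bar (31 summits) is in class I and the longest empty run spans the boundary between class III and class II.

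Class I held the 100-kb window with most summits of the region. The window from 30700000 to 30800000 held 31 of the 92 class I summits and the window before it held 14, while the median class I window held 3. In the genome 65 of 30353 windows of this length held 31 or more. When summits were joined into clusters across gaps of at most 10 kb, the largest cluster held 22 summits between 30707501 and 30761278, a span of 53.8 kb that makes up 2.86% of class I and held 23.9% of its summits. Being picked for its count and bounded by its own summits, it is dense by construction. Class I held 39.7 per Mb (28.9 to 53.3) on its telomeric side and 36.2 per Mb (23.6 to 53.0) on its centromeric side. The next cluster on the centromeric side held 9 summits between 30772270 and 30795984.

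The strongest class I summits came partly from these clusters. The highest was at 30782021 in 6p21.33 (score 20.28, rank 257 of the list), in the cluster of 9. Summits at 30710350 (score 14.90) and 30718813 (score 11.18) lay in the cluster of 22, whose median score was 5.68. The other 2 of the 5 highest lay apart from them: 29894751 in 6p22.1 (score 14.90), with no other summit within 10 kb, and 30538768 (score 10.21), with 1 neighbour at 30539310. As background from general knowledge of the hg19 gene map, with no gene model or distance used here, the stretch of the largest cluster is where IER3, an immediate early gene induced by stress and NF-kB signalling, and FLOT1, a membrane raft scaffold, are found.

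The centromeric end of class I, which by the same general knowledge holds HLA-C and HLA-B, had a highest score of 4.71. That is above the median of the whole list (3.79). From 30984771, a start chosen after the values were seen, to the end of the part it held 11 summits, or 22.2 per Mb (11.1 to 39.7). Over all of class I, 3 of 19 windows held no summit, as did 61.3% of the windows of the genome, unsequenced stretches included. Single summits lay at 30984771 (score 2.25), 31118241 (score 2.88) and 31239685 (score 4.71), with 133 kb free of summits after the first and 128 kb after the last. Then followed a cluster of 4 summits between 31368105 and 31372314, whose highest score was 3.79, and 3 summits between 31465605 and 31466650, whose highest was 4.71. None of the 11 reached a score of 5, which 29.7% of the list did.

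Neighbouring class III summits lay farther apart at the median than those of the other parts, although 54 of the 61 lay in clusters of 2 or more, as did 73 of 92 in class I and 36 of 39 in class II. The median spacing of its neighbouring summits was 6.88 kb, against 2.75 kb in class I, 2.67 kb in class II and 5.73 kb in the whole list. In class III 9 of 60 spacings (15.0%) were at most 1 kb, against 22 of 91 (24.2%) in class I and 9 of 38 (23.7%) in class II, where the whole list gave 24.9%. Only 1 of 9 class III windows was empty, and 3 held 10 or more summits, a number that 3.36% of the genome's 100-kb windows reached. Its largest cluster, 10 summits between 31775386 and 31813830, had a highest score of 4.71 (at 31790985), and the next in size, 7 summits between 31913162 and 31940525 and 5 between 31865208 and 31878937, had highest scores of 7.77 (at 31927120) and 4.71 (at 31869280).

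A single summit carried the top score of the region. It lay in class III at 31763629 in 6p21.33, with a score of 21.69 and rank 202 of the list, and its neighbours at 31762727 and 31760889 had scores of 6.90 and 4.71. The second highest of class III, at 31588618, had a score of 11.18 and no other summit within 10 kb. The others of the 5 highest lay at 31927120 and 31940525 (score 7.77 each) and at 31762727. After the first and second, class III thus had no summit between 7.77 and 11.18, whereas class I had 7 at 10 or more.

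The genes whose hg19 transcript models were at hand show a class III and a class I case. DXO, a decapping and exonuclease enzyme for incompletely capped RNA, and STK19, a winged helix nuclear protein listed in RefSeq as WHR1, overlap head to head, with start sites at 31940032 on the minus strand and 31939646 on the plus strand. The parental list held 3 summits within 1 kb of both start sites, at 31939208 (score 2.93), 31939838 (score 2.93) and 31940525 (score 7.77). The middle one lay 194 bp downstream of the DXO start and 192 bp downstream of the STK19 start. The strongest lay 493 bp upstream of the DXO start and 879 bp downstream of the STK19 start. The same model set places a second, partial copy of STK19 at 31981167 to 31981961, with no summit for 40.6 kb on the lower side and 32.2 kb on the higher side. TRIM40, a tripartite motif E3 ubiquitin ligase gene of class I at 30103917 to 30116505, had no summit in its body, and the nearest parental summits lay 60.7 kb below it and 47.8 kb above it.

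The promoters of DXO and TRIM40 are shown as a case with and a case without a summit near the start site. STK19, which also had summits near its start, is not shown. The 30-base runs below are RefSeq sequence (GRCh38.p14), 5′ to 3′ on the strand of the gene, and the capitals mark ATTGG, the reverse complement of CCAAT, a common promoter element. RefSeq starts need not be those of the hg19 models.
TRIM40: aacacatatgATTGGcatgatataagaacc
DXO: ccggccgcggATTGGctccctccaagggca
The match began 43 bases before the start in TRIM40 and 37 bases before it in DXO. The run held no CpG in TRIM40, whose lower start was taken, and 3 in DXO, and the 300-base promoter windows around them held 4 and 28. Both promoters thus carried the element, which on either strand is found in 34.6% of all promoter windows, and their CpG content differed. A single promoter of each kind allows no comparison.

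Class III promoters held the fewest CpGs at the median. Of the genes in each part, 45 of 51 in class I, 54 of 60 in class III and 34 of 37 in class II had a promoter in the RefSeq table, with 63, 78 and 47 windows from 250 bases before to 50 bases after a start. The median window held 18 CpGs in class I, 11 in class III and 16 in class II, against 14 over all 35116 windows of the table. The quartiles overlapped widely, at 5.5 to 22.5 in class I, 5.25 to 18 in class III and 5 to 22 in class II. Over all windows they were 4 to 28. CCAAT on either strand was found in 36.5% of class I windows, 30.8% of class III windows and 53.2% of class II windows, against 34.6% of all. GGGCGG on either strand was found in 52.4%, 57.7% and 48.9%, against 45.0% of all. These motifs describe letters in the windows, which were not set against summits, since the builds differ.

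Class II was split into an empty and a dense stretch. No parental and no knockout summit lay between 32223498 in class III and 32787952 in class II, a distance of 564 kb. Of the spacings between neighbouring parental summits, 937 of 45900 in the list (2.04%) and 55 of 2605 on chromosome 6 were as long or longer. The stretch took up 41.1% of class II, and the limit that a count of 0 allows, 3 counts, comes to 5.31 summits per Mb over it. That limit holds only for a stretch fixed beforehand. This one was picked for being empty, so the value does not measure a depletion. By general knowledge of the gene map the stretch holds the HLA-DRA, HLA-DRB1, HLA-DQA1 and HLA-DQB1 genes. In the remaining 0.612 Mb the 39 class II summits came to 63.7 per Mb (45.3 to 87.1). The 100-kb windows from 33100000 to the end of the part held 9, 8 and 9 of them. By the same general knowledge that end is largely extended class II, so these summits are not credited to the HLA class II genes. Taking out a stretch because it is empty raises the density by construction, and the empty stretches of class I were kept. With it taken out of both parts it crosses, class I over class II had a ratio of 0.768 (0.523 to 1.15) and class III over class II of 1.29 (0.848 to 1.98), intervals that both include equal density.

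Class II had 4 of 10 windows of 100 kb with no summit, class I 3 of 19 and class III 1 of 9. Each part had a smaller share of empty windows than the genome. A second empty stretch in class II, between 32946503 and 33132671, was 186 kb long. The build has 7 alternate sequences of the MHC, and neither list held a summit on any of them; the labels do not say whether reads could align to them, and their part in the empty stretches was not tested.

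The class II cluster with most summits held the strongest ones of that part. It comprised 9 parental summits within 10.3 kb, from 32936192 to 32946503, with a median spacing of 838 bp. It contained the 3 highest scores of class II, at 32937341 (score 17.53, rank 407), 32938139 (score 11.18) and 32940576 (score 10.02), while the median of its scores was 3.79. General knowledge of the gene map places BRD2, a BET family bromodomain reader of acetylated histones, in this stretch, and no model of it was used here. The 2 next clusters in size held 7 summits between 33159343 and 33179542, with the highest at 33168029 (score 8.87), and 5 between 33378587 and 33393681, with the highest at 33378587 (score 7.56). The remaining summit of the 5 highest lay at 32805669 (score 8.79), with no other within 10 kb.

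The knockout list held a summit in class I, none in class III and a summit in class II. The class I summit lay at 30525231 with a score of 4.55, and the nearest parental summit, at 30524992, was 239 bp away with a score of 4.71. The class II summit lay at 32938229 with a score of 5.37, inside the cluster of 9, and the nearest parental summit, at 32938139, was 90 bp away with a score of 11.18. Each list was scored on its own, so the difference between these scores is not a change in binding.

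Only the class II summit counted as shared, by the distance of 200 bp. Of the 192 parental summits of the region 1 had a knockout summit that close (0.521%, 0.0132 to 2.87), against 0.636% of the whole parental list, so the region did not stand apart. In class III 0 of 61 had one, which allows a share of up to 4.92% by the limit of 3 counts (exact binomial upper bound 5.87%), and in class I 0 of 92, which allows up to 3.26% (upper bound 3.93%). Within 500 bp it was 2 of 192 (1.04%, 0.126 to 3.71; list 0.869%), and within 1000 bp 4 of 192 (2.08%, 0.570 to 5.25; list 1.21%), 3 of them in class II and 1 in class I. The 3 in class II all lay near the same knockout summit, at 32938229, so they are not independent. The 2 knockout summits made up 0.519% of their list, and the 192 parental summits made up 0.418% of theirs, while the region is 0.123% of the genome's length. The strongest parental summits of class I and class III, at 30782021 and 31763629, had their nearest knockout summits 256790 and 1174600 bp away, and that of class II, at 32937341, had one 888 bp away. Sequencing depth is unknown, so lists of such unequal length cannot be read as a measured loss of binding at any of these sites.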

How the data were processed

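ZMYND8 ChIP-seq was run on 1 parental and 1 knockout library of MDA-MB-231 mammospheres, grouped by the genotype in the labels. Per the submitters' processing notes, the tools were MACS2 2.0.10, Bowtie2 2.2.3, Picard 1.127 and FastQC 0.11.2, with the build hg19. Their roles, the control, threshold and depth: not given in the sources used here. The deposited lists hold 1 summit per line with the authors' −log10 p or q value, which of the 2 is not stated, 1 list per library without pooling. The lowest scores were 1.31 (parental) and 1.46 (knockout).

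The coordinates came from the definition of the region. Densities carry exact Poisson intervals, ratios exact conditional intervals and shares Clopper-Pearson intervals, all at 95%. Clusters join summits across gaps of at most 10 kb. The steps were tested on simulated lists. Members and lists were chosen with earlier results of these data known. Named by rule were the 5 highest parental summits per part (ties by position), every knockout summit, the highest summit of the 3 clusters with most summits per part, and every gene of the region with an hg19 model in an installed package. In class I, 4 clusters of 5 summits tie for the third place and are not named. Chromosome lengths came from GenomeInfoDb 1.38.1, bands from circlize 0.4.16, and transcript models from pyranges 0.1.4 and GenomicFeatures 1.54.1. Gene order and promoters came from RefSeq tables of GRCh38.p14, whose positions served only to order the genes. The genes that bound each part were placed from general knowledge after the positions were seen. So were the extended class II genes, and IER3, FLOT1, HLA-B, HLA-C, BRD2 and the HLA-DR and HLA-DQ genes beside stretches of summits. An hg19 genome was not used here. Software was Python 3.11.15 with scipy 1.17.1, numpy 2.4.6, matplotlib 3.10.9 and pandas 2.3.3.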

Additional observations from a re-analysis of the deposited data

How the results depend on the processing

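No paired analysis was possible because there is 1 library per group. A ratio or share held if it kept within its own 95% interval and on its side of 1, and a count when it stayed within 1.5 times; of 69 alternatives 49 held by this measure, which does not ask whether the interval still excludes 1, 12 moved and 8 turned the direction. Class III over class I fell below 1 at a score of at least 5 (0.440) or 10 (0.610), per protein-coding gene (0.564) and outside clusters of 2 or more summits (0.872). Class III over class II did so at 5 (0.752), at 10 (0.788) and per gene (0.965), and rose to 3.07 outside clusters. Class I over class II was 0.768 without the longest empty stretch and 3.52 outside clusters. The empty stretch and the settings without each part's densest window (for scores) or largest cluster were chosen after seeing the data. Raising the high score from the highest scoring 25% to 10 lowers the shares by construction, to 7.61% (class I), 3.28% (class III) and 7.69% (class II). The ratio to the telomeric flank was 3.89 with a flank of 1 Mb, 4.0 at a score of 5 and 12.0 at 10, the last from 1 flank summit; that to the centromeric flank was 0.477 at 5. For these and for the other turned ratios the cause was not tested. Joining across 20 kb leaves fewer clusters by construction: 21 in class I, 10 in class III and 6 in class II. Counts of 2 to 12 summits limit all values at a score of 10, and unknown depth limits every comparison of the lists.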
